A study of Danio rerio with 25 samples.

Results

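The miRNAs of male zebrafish brains were compared between 36 and 12 months of age, in 10 of the 25 libraries of a small RNA sequencing series that spans 5 ages. The libraries were chosen by their age labels, 3 years (5 libraries) and 1 year (5 libraries), and not by any measured value. All fish were of the strain AB JxTü. The 36-month fish carried Tg(pu.1:GFP) and the 12-month fish carried Tg(flk:mCherry), so that age and line cannot be told apart in this comparison. The other ages of the series are 6 and 24 months, with no transgene named (the 6-month titles hold pairs of animal numbers, whose meaning is not stated), and 42 months, with Tg(wt1a:GFP). The pu.1 promoter is known for driving expression in myeloid cells of zebrafish and the flk promoter in endothelium, and neither reporter is read by a count of miRNA hairpins. The labels do not say whether the replicates are separate fish, and p-values therefore measure the spread between samples. In the main test of each miRNA that spread was estimated over all 25 libraries of the series.

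A miRNA is a short RNA that is cut from a hairpin precursor and guides a silencing complex to mRNAs with a matching site. miRNAs with the same seed at their 5′ end share most targets and form families, and many families have several gene copies in the zebrafish genome. In the brain they are known for setting the balance of progenitor division and neuronal differentiation and, in adults, for tuning synapses, glia and immune signals. The table gives reads per hairpin, in which both arms count together. Its 346 hairpin entries were summed over numbered copies to 217 miRNA names, and 197 of these had enough reads to be tested. Levels are CPM, read counts scaled to a common library size with TMM factors (trimmed mean of M values), and changes are log2 ratios of 36 over 12 months. Close relatives may share reads where their sequences are nearly the same, as in let-7, miR-29, miR-26, miR-101 and miR-10.

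Total miRNA counts ran from 5237318 to 20924118 at 36 months and from 5993186 to 16993499 at 12 months, and 201 to 206 miRNAs were detected per library at 36 months and 201 to 205 at 12 months. The label of brain was borne out by its defining miRNAs: miR-9, known from neural progenitors and neurons, averaged 50706 ± 3441 CPM at 36 months and 49816 ± 3111 CPM at 12 months, and miR-128, known from neurons, 79877 ± 11945 CPM at 36 months and 74267 ± 10859.7 CPM at 12 months. Of 4 summaries per library, none differed between the ages past an adjusted p of 0.05. The share of counts in the 10 most abundant miRNAs came nearest, at 60.8% ± 0.772 at 36 months and 58.9% ± 1.45 at 12 months (two-sided exact permutation p 0.0238 over 252 splits, adjusted over the 4 summaries 0.0952). With miR-181a left out of the total, a variant outside that adjustment, it was 47.9% at 36 months and 45.4% at 12 months (exact permutation p 0.0159). The median correlation of log2 levels was 0.979 among 36-month libraries, 0.978 among 12-month libraries and 0.972 between the ages.

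Some libraries stood apart and touch the results below. In 36-month replicate 1 the miR-200 family, typical of epithelial cells, summed to 8123 CPM, against 135 to 287 CPM in the other 36-month libraries. In 12-month replicate 4 it summed to 2899.7 CPM and the skin miRNAs to 5185 CPM. 12-month replicates 3 and 5 also held over 2000 CPM of skin miRNAs. 36-month replicate 3 was the deepest library and held 2721 CPM of miRNAs from Hox clusters, against 19539.9 to 41868 CPM in the other 36-month libraries. 12-month replicate 1 lay nearer to the mean of the 36-month libraries than to that of the other 12-month libraries for 4 of the 8 miRNAs called below. The other 12-month libraries did so for at most 1 of the 8. Over all miRNAs its median correlation was 0.983 with 36-month and 0.979 with other 12-month libraries. 36-month replicates 1 and 4 also correlated more with the other age (0.950 against 0.943 and 0.983 against 0.980). Whether the age label of 12-month replicate 1 is right could not be checked from the files. Results without it are given as descriptions. It was noticed through the called miRNAs, so larger changes without it are no further support for them.

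Few miRNAs were called between 36 and 12 months, and a miRNA that was not called is not shown to be unchanged. Of the 197 tested, 8 (4.06%) were called at an adjusted p under 0.05, 3 higher (1.52%) and 5 lower (2.54%) at 36 months, by the quasi-likelihood test of edgeR fitted on all 25 libraries. miR-29b, miR-26b and miR-733 rose. miR-15b, miR-457a, miR-15c, miR-30c and miR-148 fell. The median log2 change of all tested miRNAs was -0.01, and 97 changes were positive and 100 negative. An unadjusted p under 0.05 was found for 44 (22.3%), with 22 (11.2%) in each direction. For 115 of the 197 the size of the change was under 0.25, and for 21 it was over 1, though only 2 of the called miRNAs were among those 21. For 9 miRNAs (4.57%) the 36- and 12-month libraries did not overlap, 6 (3.05%) with every 36-month library above and 3 (1.52%) with every one below.

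**Figure D1:**
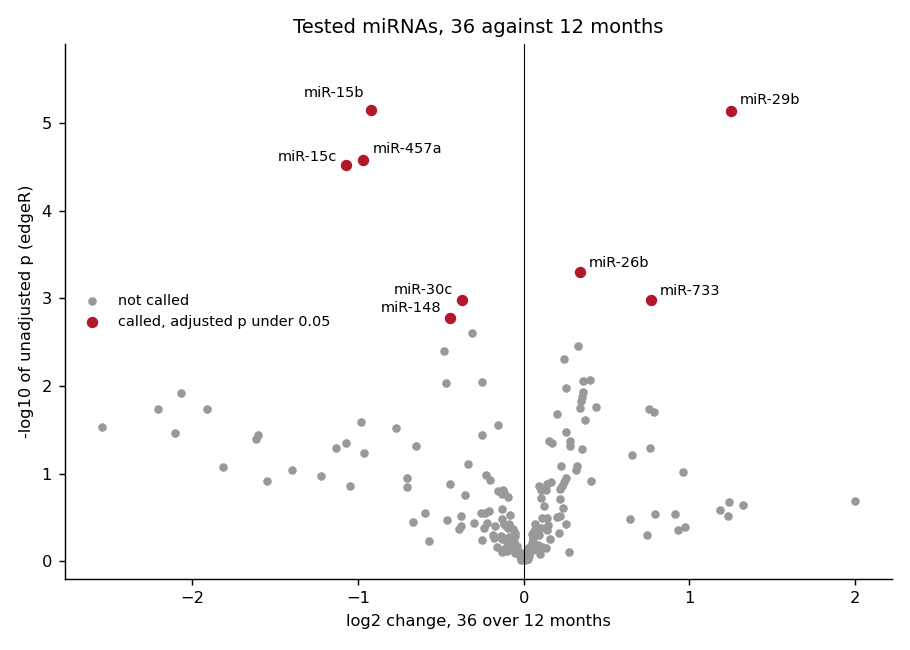
Each point is 1 of 197 tested miRNAs, with the log2 change of 36 over 12 months on the horizontal axis and -log10 of the unadjusted edgeR p on the vertical axis, and the 8 called miRNAs in red. miR-15b and miR-29b stand highest, while most points with a change beyond 1 in size lie low.

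The calls rest on the spread estimated from all 25 libraries. In a fit of the 10 libraries alone 0 miRNAs were called by edgeR, with 32 at an unadjusted p under 0.05, and miR-15b and miR-29b then had an adjusted p of 0.0756 each. DESeq2 on 25 libraries called 20, 9 higher and 11 lower, and limma-voom called 10, and both counts held all 8. The others called by DESeq2 were let-7a, let-7f, miR-19a, miR-29a, miR-92b, miR-101a, miR-122, miR-130b, miR-193b, miR-205, miR-454a and miR-725. Those of limma-voom were miR-193b and miR-7146. Below, called without a named setting means by edgeR on all 25 libraries. Scaled by library totals alone, 2 were called higher and 9 lower. Leaving out 1 library gave 5 to 13 calls. The count was 13 when 36-month replicate 3 was left out, and 5 when 36-month replicate 2 or any of 12-month replicates 2, 3 and 5 was. Without the 7 libraries of the series with over 2000 CPM of miR-200 family or skin miRNAs, which left 4 at 36 months and 2 at 12 months, 0 were called, with 22 at an unadjusted p under 0.05. With the sums of miR-200 and skin miRNAs as covariates on all 25 libraries 7 were called, 3 higher and 4 lower. They were miR-15b, miR-15c, miR-457a, miR-26b and miR-29b of the 8, and miR-31 and miR-92b. None of the 8 called miRNAs changed sign in any of its 20 alternatives. They were picked in these same libraries for changes large against their SE. A kept sign was therefore likely in advance and is no further support.

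The miR-15/16 family, known in mammals for repressing cyclins and the survival gene BCL2, held 3 of the 5 called falls. miR-15b had 370.2, 358, 382, 341 and 322 CPM in 36-month replicates 1 to 5, against 401, 617, 825, 802 and 707 CPM in 12-month replicates 1 to 5. The groups did not overlap, but 12-month replicate 1 lay close above the highest 36-month library and apart from the other 4. miR-15b was 1.89-fold lower at 36 months (log2 change -0.92, SE 0.16, adjusted p 7.30e-04).

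miR-457a, a fish member of the same family, had 75.9, 86.9, 71.5, 65.8 and 60.2 CPM at 36 months and 76.4, 119, 157, 199.7 and 153 CPM at 12 months. 12-month replicate 1 lay inside the 36-month range, and the other 12-month libraries lay above all 36-month ones. The change was -0.97 (SE 0.18, adjusted p 0.00147), on 353 to 1454 reads per library at 36 months and 862 to 1605 at 12 months. miR-15c had 23.9, 26.02, 21.8, 19.8 and 13.9 CPM at 36 months and 25.7, 48.8, 45.8, 58.96 and 42.8 CPM at 12 months. Here too 12-month replicate 1 lay inside the 36-month range. The change of miR-15c was -1.07 (SE 0.20, adjusted p 0.00147), on 97 to 443 reads per library at 36 months and 277 to 469 at 12 months. Without 12-month replicate 1 the changes of miR-15b, miR-457a and miR-15c were -1.05, -1.12 and -1.21 and stayed called. Without the libraries rich in epithelial miRNAs, where that replicate is 1 of only 2 at 12 months, they were -0.52, -0.43 and -0.85 and not called (adjusted p 0.237, 0.447 and 0.237).

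The 3 called members were not the abundant ones of their family. miR-16b averaged 3064 ± 926 CPM at 36 months and 3272 ± 637 CPM at 12 months, at a change of -0.09 (SE 0.23, adjusted p 0.864). The change of miR-16c was 0.12 (adjusted p 0.536) and that of miR-15a 0.41 (SE 0.25, adjusted p 0.381), neither called. Of the 8 tested members 3 were called lower and 0 higher, where 2.54% of all tested miRNAs were called lower and 1.52% higher. Their changes were negative for 5 and positive for 3, at a median of -0.16, against -0.01 over all miRNAs. The summed level of the list ran from 4438 to 8349 CPM at 36 months and from 5557 to 8655 CPM at 12 months.

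**Figure D2:**
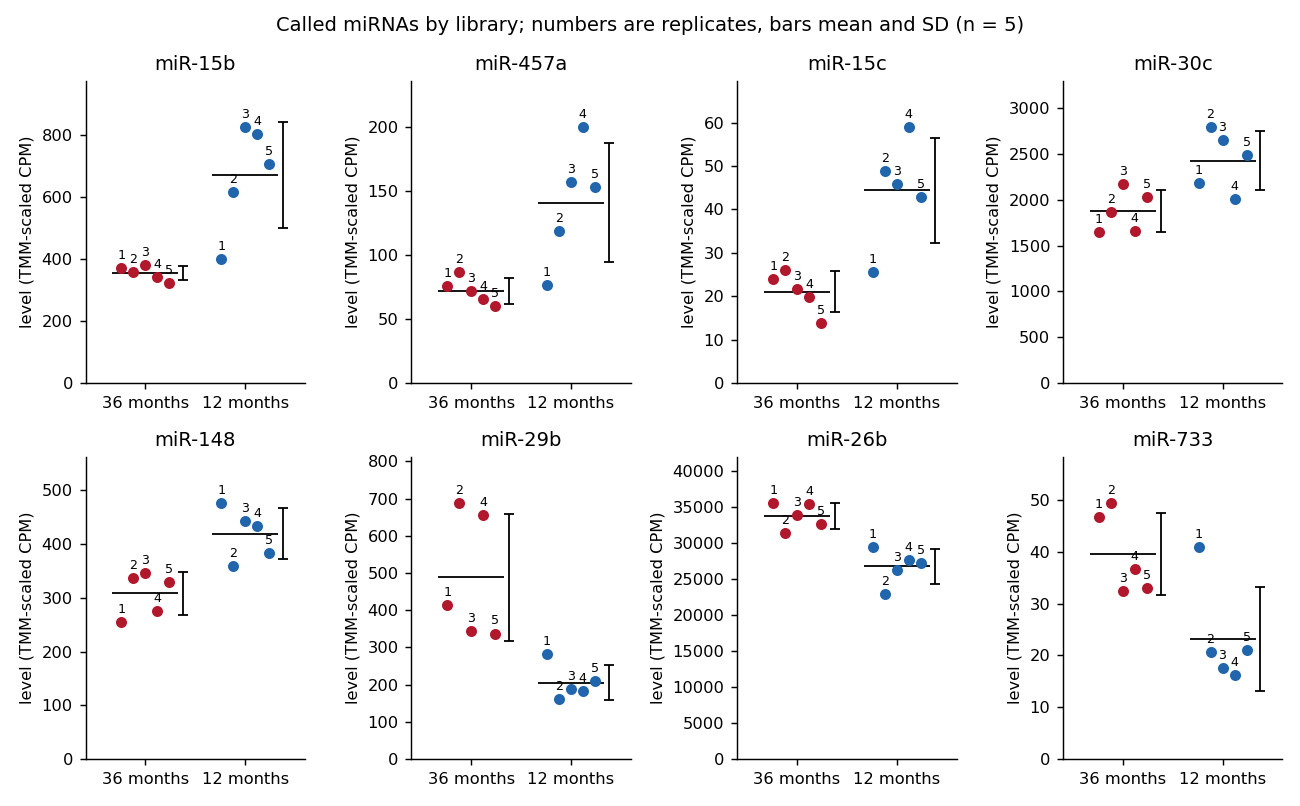
Levels of the 8 called miRNAs in TMM-scaled CPM, with 36-month libraries in red on the left and 12-month libraries in blue on the right of each panel, each point 1 library with its replicate number, lines the mean and bars the SD. 12-month replicate 1 lies within or next to the 36-month libraries for miR-15b, miR-457a, miR-15c and miR-733, but is the highest of all 10 for miR-148.

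Among the rises miR-29b, which is known in mammals for repressing collagens and other matrix genes, was the largest. It had 414, 688, 345, 657 and 337 CPM in the 36-month libraries, against 283, 162, 187, 182 and 210.5 CPM in the 12-month libraries. The groups did not overlap, replicates 2 and 4 were far above the others at 36 months, and 12-month replicate 1 was the highest of its age. miR-29b was 2.38-fold higher at 36 months (log2 change 1.25, SE 0.21, adjusted p 7.30e-04), and with any 1 library left out it stayed called at 1.104 to 1.40. Without the libraries rich in epithelial miRNAs it was 1.23 (adjusted p 0.209). Its 2 hairpin copies held 52.0% and 48.0% of its reads in the 10 libraries. How reads were divided between copies is not known, so that the change cannot be assigned to a single copy. The more abundant miR-29a had 1439, 1683, 1923, 1670.3 and 1519 CPM at 36 months and 1527, 1240.0, 1405, 1004 and 1377 CPM at 12 months. These ranges overlap, and the change of 0.33 (SE 0.10, adjusted p 0.0698) was not called. It was called at 0.39 without 12-month replicate 1 (adjusted p 0.0245) and at 0.38 without 36-month replicate 1 (adjusted p 0.0492). With no library left out it was called by DESeq2, and by edgeR with miRNAs kept at a mean of at least 10 CPM.

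miR-26b, which lies in an intron of a ctdsp phosphatase gene and in zebrafish is known for lowering it during neuron formation, had 35591, 31365, 33853, 35473 and 32629 CPM at 36 months and 29494, 22961, 26307, 27692 and 27273 CPM at 12 months. All 36-month libraries lay above all 12-month libraries. The step was small, 1.26-fold (log2 change 0.34, SE 0.08, adjusted p 0.0199), in one of the most abundant miRNAs of the brain, whose share of counts was 3.34% ± 0.193 at 36 months and 2.74% ± 0.223 at 12 months. The call was lost when 12-month replicate 2 was left out (adjusted p 0.0583) and when scaling used library totals alone (0.28, adjusted p 0.0523). Its relative miR-26a averaged 32042 ± 1878 CPM at 36 months and 30068 ± 1953 CPM at 12 months, a change of 0.09 (SE 0.06, adjusted p 0.392).

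miR-733 is a low-abundance fish miRNA, and it had 46.7, 49.5, 32.4, 36.7 and 32.97 CPM at 36 months, against 40.9, 20.6, 17.5, 16.2 and 21.03 CPM at 12 months. The other 4 12-month libraries beside replicate 1 lay below all 36-month ones, while replicate 1 was at the level of the 36-month libraries. The change was 0.77 (SE 0.20, adjusted p 0.0298), and 1.08 (SE 0.16, adjusted p 5.66e-05) without that replicate. Leaving out any of 12-month replicates 2 to 5, or of 36-month replicates 1 and 2, lost the call, with an adjusted p of up to 0.0932. With the sums of miR-200 and skin miRNAs as covariates the change was 0.59 (adjusted p 0.0918), and without the libraries rich in them it was 0.34 (adjusted p 0.698). The part of these miRNAs in the change of miR-733 was not tested otherwise.

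Both remaining falls were smaller and less stable. miR-30c, of a family known in zebrafish for steering the sprouting of endothelium, had 1652, 1865, 2168, 1663 and 2030.2 CPM at 36 months and 2187, 2791, 2646, 2011 and 2489 CPM at 12 months. The highest 36-month library lay above the lowest 12-month library. The change was -0.37 (SE 0.10, adjusted p 0.0298), and leaving out any of 36-month replicates 1, 2 and 4 and of 12-month replicates 2, 3 and 5 lost the call (adjusted p up to 0.123). miR-30e, its neighbour in the genome, had a change of -0.10 (adjusted p 0.46). Of the 5 tested miR-30 members 1 was called lower and 0 higher, where 2.54% of all tested miRNAs were called lower and 1.52% higher. Their changes were negative for 3 and positive for 2, at a median of -0.01. miR-148, known in human cells for repressing a DNA methyltransferase, had 255, 336, 346, 275 and 329 CPM at 36 months and 477, 359, 443, 433 and 384 CPM at 12 months. Its groups did not overlap. The change of -0.44 (SE 0.12, adjusted p 0.0413) kept its call when 12-month replicate 2 or 36-month replicate 3 was left out, and lost it when any other single library was, at an adjusted p of up to 0.124. With the sums of miR-200 and skin miRNAs as covariates neither fall was called, at -0.35 (adjusted p 0.0576) for miR-30c and -0.39 (adjusted p 0.0727) for miR-148. miR-152, a relative of miR-148, averaged 168 ± 23.3 CPM at 36 months and 161 ± 32.5 CPM at 12 months, a change of 0.06.

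Next to the called miRNAs stood several that missed the threshold. miR-193b had 124.9, 122, 143, 138 and 124.99 CPM at 36 months and 153, 165, 150.1, 182 and 161 CPM at 12 months, without overlap, at a change of -0.31 (SE 0.09, adjusted p 0.0547). miR-92b, known from neural progenitors, averaged 11944 ± 2855 CPM at 36 months and 16700.3 ± 3031 CPM at 12 months (-0.48, adjusted p 0.0716). It was called with the epithelial sums as covariates (-0.60, adjusted p 0.0112), with DESeq2, with library totals alone and with 12-month replicate 4 or 36-month replicate 3 or 5 left out. The change of its relative miR-92a was -0.01 (SE 0.07). miR-101a, whose family is known in human cells for repressing the histone methyltransferase EZH2, had 9839.6, 11177, 12661, 10635 and 9797 CPM at 36 months and 11551, 6919.9, 7839.9, 6909 and 7747 CPM at 12 months. 12-month replicate 1 was again the one library of its age inside the 36-month range. The change of miR-101a was 0.40 (SE 0.14, adjusted p 0.115), and 0.56 (adjusted p 0.00566) without that replicate. miR-101b (0.36, adjusted p 0.124), miR-454a (0.25, 0.124), miR-130b (-0.25, 0.115) and the muscle miRNA miR-133a (-0.47, 0.115) were not called. Among the miRNAs of this paragraph DESeq2 also called miR-193b, miR-101a, miR-454a, miR-130b and miR-725. miR-193b and miR-130b were called with library totals alone and without 36-month replicate 3 too, and miR-193b by limma-voom. miR-725 had one of the largest changes, -2.06, with an SE of 0.75 and an adjusted p of 0.124, and its level was 43.8, 27.4, 32.2, 29.6 and 44.00 CPM at 36 months, against 41.2, 31.4, 163, 343 and 163 CPM at 12 months. Its 3 high libraries at 12 months are those rich in skin miRNAs.

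The let-7 family, which is known for holding back stem cell genes in differentiated cells, had 8 of its 10 tested members at a positive change and 0 called, at a median of 0.16. Of all 197 tested miRNAs 97 had a positive change. With 4.06% of all tested miRNAs called, 0 calls say little about a family of this size. let-7a, its most abundant member here, had 70078, 64339.6, 55640.1, 56554 and 57554 CPM at 36 months and 53435, 43529, 44693, 50515 and 44751 CPM at 12 months. The groups did not overlap, at a change of 0.36 (SE 0.13, adjusted p 0.115). let-7f also did not overlap, with 5157 ± 318 CPM at 36 months and 4359 ± 331 CPM at 12 months (0.24, SE 0.08, adjusted p 0.0801). Groups without overlap were found for 4.57% of all tested miRNAs. DESeq2 called let-7a and let-7f, and so did edgeR without 36-month replicate 3. With miRNAs kept at a mean of at least 10 CPM, edgeR called let-7f too. let-7d had a negative change of -0.15 (SE 0.06, adjusted p 0.176).

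The miR-17-92 clusters and their paralogs, known for promoting cell division, had 11 of 14 tested members at a positive change, at a median of 0.28, and 0 called. Of all 197 tested miRNAs 97 had a positive change and 4.06% were called. The members of the miR-19 branch had positive changes, none called by edgeR, while DESeq2 called miR-19a. The changes were 0.35 for miR-19a, 0.34 for miR-19b and 0.35 for miR-19c, with SEs of 0.13 each and adjusted p of 0.133, 0.139 and 0.139. That of miR-19d was 0.25. miR-25 lies beside miR-19d and miR-93 in the genome but is not on the list, and its change was -0.25. Several listed members lie in shared clusters, so that their changes are not independent. miR-19a had 286, 310.3, 257, 254 and 266 CPM at 36 months, against 223, 183, 209.9, 264 and 199 CPM at 12 months, and overlapped through 12-month replicate 4. The summed level of the list was 26206 to 34199 CPM at 36 months and 30914 to 37870.0 CPM at 12 months, and that sum is mostly miR-92a and miR-92b. In miR-23/24/27, 6 of 8 members had a negative change at a median of -0.10, and 0 were called. Of all 197 tested miRNAs 100 had a negative change.

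The other families had median changes between -0.10 and 0.38. The median was 0.05 over 3 tested miR-181 members, -0.10 over 3 of miR-34, -0.01 over the 8 tested relatives of miR-130, 0.03 over 5 of miR-99, miR-100 and miR-125, 0.38 over 2 of miR-101 and 0.09 over 3 of miR-221 and miR-222, with 0 called in each. With 4.06% of all tested miRNAs called, 0 calls say little about families of this size. miR-181a, the most abundant miRNA, held 24.7% ± 1.56 of all reads at 36 months and 24.7% ± 2.17 at 12 months, and its change was 0.05 (SE 0.09, adjusted p 0.769). The change was -0.05 for miR-181b, 0.05 for miR-181c, -0.07 for miR-34a, -0.16 for miR-34c, -0.12 for miR-125a, -0.05 for miR-125b, 0.10 for miR-30b, -0.17 for miR-222a and 0.65 (SE 0.33) for miR-222b.

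Lists of miRNAs known from single cell types held 0 called members at 36 against 12 months by edgeR, though DESeq2 called miR-122 and miR-205. With 4.06% of all tested miRNAs called, lists of this size say little by that count. In bulk tissue, fewer cells of a type and less RNA per cell cannot be told apart. Of the neuronal list 13 of 13 members were tested, at a median change of -0.01 and between -0.35 for miR-218b (SE 0.25) and 0.11 for miR-128 (SE 0.13). miR-153a, a neuronal miRNA of the same list, had a change of -0.12. Their sum was 180991 to 218708 CPM at 36 months and 170017 to 215643 CPM at 12 months. The oligodendrocyte miRNAs miR-219 and miR-338, known for driving myelinating cells to mature, had changes of -0.16 (SE 0.11) and 0.11 (SE 0.11). The endothelial pair miR-126a and miR-126b, of the cell type of the flk promoter, had changes of 0.07 (SE 0.08) and -0.02 (SE 0.10).

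The leukocyte list is wider than the myeloid cells of the pu.1 promoter. Leukocyte miRNAs summed to 2253 to 4740.4 CPM at 36 months and 2099 to 4076 CPM at 12 months. Neither these levels nor those of the endothelial pair can tell line from age. None of their 7 members was called, with 3 positive and 4 negative changes. miR-146a, known for damping innate immune signalling, had 1676, 2453, 1835, 2468 and 519 CPM at 36 months and 504, 1199.5, 856, 1751 and 973 CPM at 12 months. It was highest in 36-month replicates 2 and 4, but 36-month replicate 5 lay with the lowest 12-month library, at a change of 0.76 (SE 0.37, adjusted p 0.219). miR-146b had a change of 0.22 (adjusted p 0.464). The red blood cell miRNAs miR-144 and miR-451 had changes of -0.24 (SE 0.29) and 0.21 (SE 0.30).

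Among the cell type and tissue lists, those of skin and the miR-200 family had the widest median changes. All 6 members of the miR-200 family had a positive change, at a median of 1.21, and 0 were called. miR-141 had 2232, 60.003, 49.1, 71.9 and 49.02 CPM at 36 months and 40.01, 45.9, 109, 648 and 140.4 CPM at 12 months, by far highest in 1 library at each age. Its change of 1.32 (SE 1.07) was -1.76 without 36-month replicate 1 and 2.56 without 12-month replicate 4. miR-429b had a change of 2.00 (SE 1.53). All 3 skin miRNAs had a negative change, at a median of -1.61, and their sum was 282 to 1109 CPM at 36 months and 343 to 5185 CPM at 12 months. miR-205, an epidermal miRNA, had 754, 213, 268, 247 and 189 CPM at 36 months and 181, 229, 1360.0, 3075 and 1444 CPM at 12 months, at -1.91 (SE 0.75, adjusted p 0.139). miR-203b, another, had a change of -1.61 (adjusted p 0.209). Their 12-month levels fell into 2 low and 3 high libraries.

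The 6 muscle miRNAs had negative changes at a median of -0.76, with sums of 887 to 1165 CPM at 36 months and 1021 to 2057 CPM at 12 months. miR-206, a skeletal muscle miRNA of the list, stood at 1.15, 4.41, 1.03, 3.73 and 2.01 CPM at 36 months and 1.36, 1.51, 1.95, 36.2 and 1.70 CPM at 12 months. The liver miRNA miR-122 had 6.64, 16.4, 1.23, 3.91 and 3.01 CPM at 36 months, against 3.51, 37.3, 38.02, 5.96 and 58.5 CPM at 12 months, at -2.20 (SE 0.86, adjusted p 0.139), and miR-194a, known from gut and liver, had a change of -1.13. The list of vascular smooth muscle and mesenchyme had 2 positive and 2 negative changes. The negative ones were those of miR-199 and miR-214, a pair known from mesenchyme, at -0.71 (SE 0.46) and -0.70 (SE 0.43). miR-199 was at 3767 CPM in 12-month replicate 4 and at 565 to 1253 CPM in the other 12-month libraries. With 1 library left out, the change of miR-199 ran from -1.11 to 0.023. miR-143 averaged 13410 ± 1861 CPM at 36 months and 12794 ± 3392 CPM at 12 months. miR-145 averaged 180 ± 19.3 CPM at 36 months and 169 ± 22.9 CPM at 12 months. miR-184, known from lens and cornea, had a change of -1.07 (SE 0.50), and miR-204, known from eye and choroid plexus, one of -0.23. miR-7a and miR-7b, known from endocrine and neurosecretory cells, had changes of 0.24 and 0.32. miR-375, the other member of the endocrine list, had a change of -0.57. It averaged 117 ± 110 CPM at 36 months and 174 ± 143 CPM at 12 months. The 5 sensory cell and eye miRNAs, miR-184 and miR-204 among them, had 3 positive and 2 negative changes, at a median of 0.64. Their sum was 23146 CPM in 36-month replicate 1, against 5729 to 6818 CPM in the other 36-month and 6437 to 12994 CPM in the 12-month libraries. The median was -0.55 over 6 miRNAs of liver, gut and pancreas and -0.32 over 4 of vascular smooth muscle and mesenchyme. It was 0.24 over 3 of endocrine cells, and 0 were called in each of these lists.

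All 7 tested miRNAs of the Hox cluster list, which are known from hindbrain and spinal cord, had negative changes, at a median of -0.38, and 0 were called. miR-10b, the most abundant, had 9595, 11746, 1291, 12715 and 20854 CPM at 36 months and 12516, 11757, 22847, 12113 and 13703 CPM at 12 months. 36-month replicate 3 was far below the rest, and the other 4 overlapped the 12-month libraries. Its change was -0.38 (SE 0.44, adjusted p 0.673). miR-10a had a change of -0.60 (SE 0.54), which was -0.30 without 36-month replicate 3. miR-196b, at under 3 CPM in every library, had a change of -0.98 (adjusted p 0.168).

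**Figure D3:**
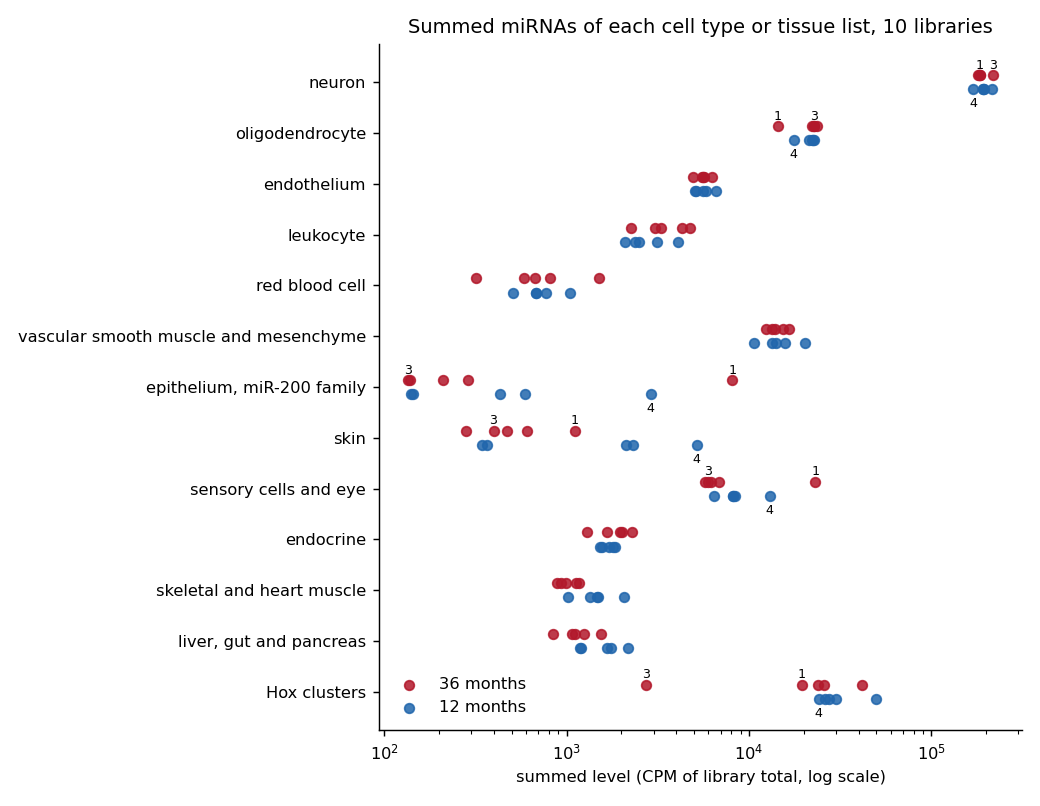
Summed level of each cell type or tissue list in CPM of the library total on a log scale, 1 point per library, with 36 months in red above 12 months in blue; the numbers mark 36-month replicates 1 and 3 and 12-month replicate 4. Neuronal and endothelial sums overlap closely, while 36-month replicate 1 and 12-month replicate 4 lie far right for the miR-200 family and 36-month replicate 3 far left for the Hox clusters.

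Neighbouring hairpins were read from RefSeq (assembly GRCz12tu), in which 341 of 346 entries had a match and 48 groups of 2 or more miRNA names lay within 10 kb of each other. miR-15b and miR-457a are neighbours and fell by 0.92 and 0.97 on the log2 scale. In no other group was more than 1 member called. miR-15c (-1.07) lies beside miR-16a (-0.22, SE 0.24), miR-29b (1.25) beside miR-29a (0.33) and miR-30c (-0.37) beside miR-30e (-0.10). In each of these pairs the neighbour was not called, and the difference within a pair was not tested. The value of miR-29b is summed over its 2 hairpin copies, so that it need not come wholly from beside miR-29a.

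The levels at the other ages place these changes in adult life. For 7 of the 8 called miRNAs the 24-month mean lay between the 12- and 36-month means. The 8 were picked for the gap between those means, which by itself makes a 24-month mean inside the gap more likely. It also lay between them for uncalled miRNAs such as miR-29a and miR-101a, and outside for others such as let-7a and miR-92b. The share over all tested miRNAs is not given here, so the 7 of 8 cannot show a steady course with age. miR-15b averaged 812 ± 94.1, 670.5 ± 172, 373 ± 31.6, 355 ± 23.8 and 345 ± 71.8 CPM at 6, 12, 24, 36 and 42 months (SD, n = 5 each), so that 92.1% of its log2 step between 12 and 36 months lay before 24 months. The share was 92.96% for miR-457a, and miR-15c was lower at 24 months (19.2 ± 4.79 CPM) than at 36 months (21.1 ± 4.65 CPM). miR-29b averaged 187 ± 23.2, 205 ± 47.1, 317 ± 69.1, 488 ± 171 and 389 ± 76.7 CPM in the same order of ages, with 50.3% of its step before 24 months, and miR-30c with 50.9%. miR-733 averaged 26.7 ± 1.17 CPM at 24 months, with 25.9% of its step by then, and 30.7 ± 5.94 CPM at 42 months. miR-148 was at its highest mean of the 5 ages at 12 months and at its lowest at 36 months, with 343 ± 51.4 CPM at 6 months and 342 ± 51.8 CPM at 42 months. These ages come from different lines, and the shares are descriptions without a test.

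**Figure D4:**
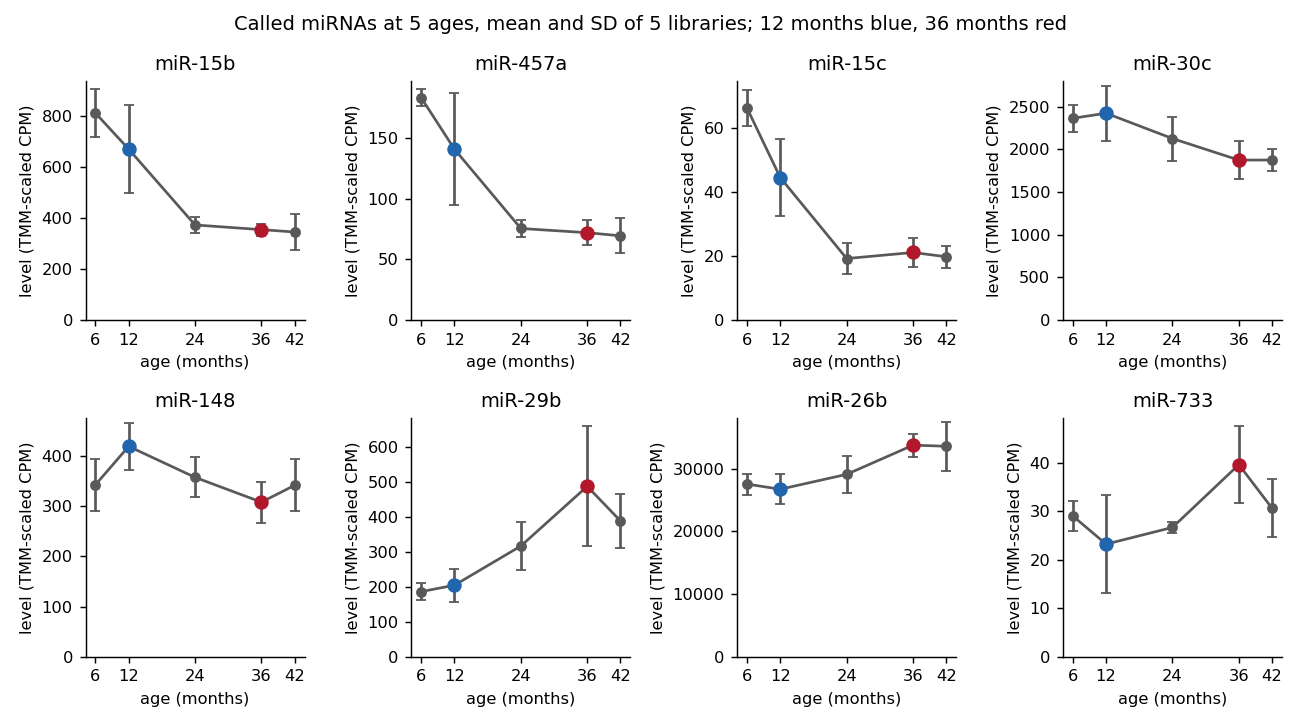
Mean level in TMM-scaled CPM (error bars SD, 5 libraries per age) against age in months for the 8 called miRNAs, with 12 months in blue and 36 months in red. miR-15b, miR-457a and miR-15c are at their 36-month level by 24 months, whereas miR-29b and miR-26b have intermediate 24-month means and miR-148 and miR-733 have their extremes at 12 and 36 months.

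The 36 against 12 month changes were set beside 24 against 6 months, 2 ages with no transgene named and no library in common with 36 and 12 months. Across the 197 miRNAs the 2 sets of changes had a Pearson correlation of -0.0923, with 105 of the same sign, as a description across miRNAs, which are not independent and share libraries and scaling. At 24 against 6 months 63 miRNAs (32%) were called and 85 (43.1%) had an unadjusted p under 0.05. The 63 included 4 of the 8 of 36 against 12 months, 50.0% of that list and 6.35% of the longer one. miR-15b, miR-457a, miR-15c and miR-29b were the 4, with changes of -0.92, -0.97, -1.07 and 1.25 at 36 against 12 months and -1.12, -1.28, -1.78 and 0.76 at 24 against 6 months. The other 4 had changes at 24 against 6 months of 0.08 for miR-26b, -0.12 for miR-733, -0.15 for miR-30c and 0.06 for miR-148. The difference of the 2 changes was not called for any of the 8, and came nearest for miR-733 at 0.89 (SE 0.29, adjusted p 0.0509) and miR-148 at -0.51 (SE 0.18, adjusted p 0.0568). Both of these differences were called with DESeq2 size factors, with no filter on low counts and with 36-month replicate 3 left out. That of miR-733 was also called at a mean of at least 10 CPM, with library totals alone and with 12-month replicate 1 or 36-month replicate 5 left out, and that of miR-26b with library totals alone.

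For 18 other miRNAs (9.14%) the 2 changes differed at an adjusted p under 0.05, 12 of them (6.09%) with the higher and 6 (3.05%) with the lower value at 36 against 12 months, and 56 (28.4%) had an unadjusted p under 0.05. miR-19c had 0.35 at 36 against 12 months and -0.49 at 24 against 6 months, a difference of 0.84 (SE 0.19, adjusted p 0.0324). miR-216a, known from pancreas, had -0.02 at 36 against 12 months and -0.69 at 24 against 6 months (difference 0.67, adjusted p 0.0466), and miR-200c had 1.19 at 36 against 12 months and -3.94 at 24 against 6 months (difference 5.13, adjusted p 0.0472). In 6-month replicates 1 and 5 the miR-200 family summed to 9033 and 8107 CPM, and in 6-month replicate 2 the skin miRNAs to 3861 CPM. Without the libraries rich in these miRNAs, and also with their sums as covariates, 0 of the differences were called. The count also turned on single libraries. Leaving out 1 of the 10 libraries gave 0 to 37 calls. With any of 36-month replicates 1, 2 and 4 and 12-month replicates 2 and 5 out there were 0. With 12-month replicate 3 out there were 2, and with 12-month replicate 1 out 3. The count rose to 21 with 36-month replicate 5 out, 25 with 12-month replicate 4 out and 37 with 36-month replicate 3 out. limma-voom called 2, and library totals alone gave 20 higher and 1 lower with the median difference at 0.14 in place of 0.02.

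Against 42 over 24 months, another pair with no shared library, 0 of 197 differences were called by edgeR, with 32 (16.2%) at an unadjusted p under 0.05, and 0 by limma-voom, with 31. At 42 against 24 months itself 2 miRNAs (1.02%) were called and 33 (16.8%) had an unadjusted p under 0.05. Neither of the 2 called was among the 8. There the change was -0.11 for miR-15b, 0.04 for miR-15c, -0.12 for miR-457a and 0.29 for miR-29b. Without 12-month replicate 1, 13 differences were called, 7 higher and 6 lower at 36 against 12 months. Among them were miR-15b (-0.94), miR-457a (-0.999), miR-15c (-1.26), miR-29b (1.104) and miR-733 (0.88). That library was noticed through miRNAs called in these data, so these calls are no independent support. With any other of the 10 libraries left out 0 were called.

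**Figure D5:**
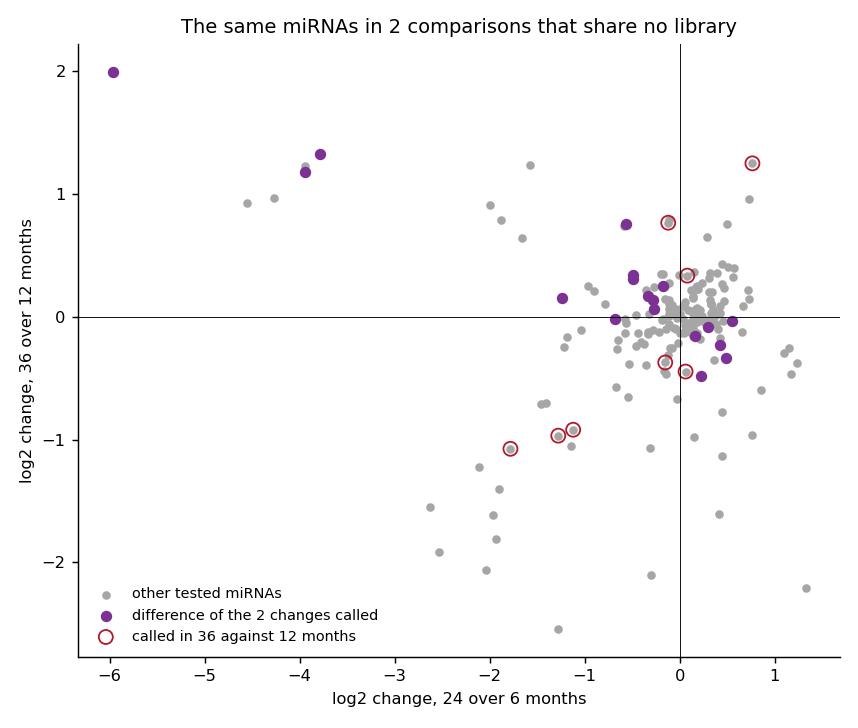
Log2 change of 36 over 12 months (vertical) against that of 24 over 6 months (horizontal) for 197 miRNAs, with the 18 whose difference was called in purple and the 8 called at 36 against 12 months ringed in red. miR-15b, miR-457a and miR-15c lie low in both, and the miR-200 family lies far left at 24 against 6 months and above 0 at 36 against 12 months.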

How the data were processed

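Small RNA libraries from brains of male zebrafish, 25 in all and 5 per age, were made with the Illumina TruSeq small RNA kit, per the labels' protocols. The submitters' processing notes name SAMtools 1.3.1-9, BWA 0.7.12-r1039, Trimmomatic 0.36 and CASAVA 1.8.4. How reads that match several hairpins were counted, by which program, and on which build and annotation is not given in the sources used here. By which rule reads were divided between copies or relatives can therefore not be told. For 32 of the 51 names with several copies, the counts of the copies were within 10% of equal. Sharing of reads between relatives was not tested. The deposited values are raw counts per hairpin, whole numbers with no scaling by the authors. Columns left unused numbered 0.

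Numbered copies were summed by name. 51 names have several copies. filterByExpr (count minimum 10, total minimum 15) kept 197 names. In R 4.3.3, edgeR 4.0.16 gave TMM factors, a robust quasi-likelihood fit on 25 libraries with age as a factor and F tests, with Benjamini-Hochberg adjustment over 197 and a call under 0.05. SEs come from the F statistic. Differences between comparisons are contrasts in the same fit. Sums of lists use CPM of library totals. limma 3.58.1 and DESeq2 1.42.0 were alternatives. Library summaries had two-sided exact permutation tests, whose smallest p is 0.00794. Replicates are numbered in order of deposit and pair nothing. The code was tested on simulated data.

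Named are the called miRNAs, those of smallest p to make 10 in each direction at a mean of at least 10 CPM, the 5 most abundant, in each list the called and the 2 of smallest p, and up to 10 called differences. Others, such as neighbours and relatives of these, were named after their values were seen. The members and lists were chosen with earlier results of these data known. Grouping by shared seed was not run.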

Additional observations from a re-analysis of the deposited data

Results flagged for a closer look

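A library lay apart from the other 4 of its age by Dixon's criterion (a gap to its neighbour of over 0.71 of the range) in 27 of 198 groups of 5 looked at, 13.6%. The criterion flags about 1 in 20 groups of independent, normally distributed values. These groups share libraries, and list sums hold miRNAs also looked at singly. The 2 rates therefore cannot show an excess over chance. 36-month replicate 1 and 12-month replicate 4 made up 10 of the 27 each. In 36-month replicate 1 the miR-200 family summed to 8123 CPM (135 to 287 in the other 4), with miR-200c at 775 CPM (18.99 to 30.4 in the other 4), miR-141 at 2232 CPM (49.02 to 71.9 in the other 4) and miR-429b at 260.3 CPM (0.932 to 1.52 in the other 4). Its sensory cell and eye miRNAs summed to 23146 CPM (5729 to 6818 in the other 4), and miR-205 was at 754 CPM (189 to 268 in the other 4) and miR-34c, known from multiciliated cells, at 164 CPM (30.7 to 57.2 in the other 4). The same library was low in oligodendrocyte miRNAs, at 14409 CPM (22222 to 23739 in the other 4), with miR-338 at 11191 CPM (16952 to 18119.7 in the other 4), and in miR-27d, at 847 CPM (1793 to 1992 in the other 4).

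12-month replicate 4 held 2899.7 CPM (141 to 589.7 in the other 4) of the miR-200 family, with miR-200c at 252 CPM (17.8 to 49.3 in the other 4), miR-141 at 648 CPM (40.01 to 140.4 in the other 4) and miR-429b at 57.3 CPM (1.17 to 4.33 in the other 4). The mesenchymal miR-199 was at 3767 CPM (565 to 1253 in the other 4) there and miR-214 at 101.7 CPM (16.95 to 38.9 in the other 4), the muscle miRNA miR-206 at 36.2 CPM (1.36 to 1.95 in the other 4), miR-27a at 364 CPM (78.8 to 159 in the other 4) and the red blood cell miR-451 at 783 CPM (442 to 539.7 in the other 4). Oligodendrocyte miRNAs summed to 17618 CPM (21456 to 22759 in the other 4) in it.

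36-month replicate 3 stood apart in its total count of 20924118, against 5237318 to 9094367 in the other 36-month libraries, in its neuronal miRNAs at 218708 CPM (180991 to 185034 in the other 4) and in miR-130b at 820.1 CPM (581 to 624 in the other 4). 12-month replicate 1 did so in miR-733 at 40.9 CPM (16.2 to 21.03 in the other 4) and miR-101a at 11551 CPM (6909 to 7839.9 in the other 4), 12-month replicate 2 in miR-126a at 4045 CPM (3161 to 3406 in the other 4), and 12-month replicate 3 in the Hox cluster sum at 50077 CPM (24158 to 30117 in the other 4).

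The change at 36 against 12 months differed from that at 24 against 6 months, by the edgeR test of the difference, at 0.84 for miR-19c, 0.67 for miR-216a, 1.40 for miR-30a, -0.38 for miR-27b, -0.58 for miR-730, -0.32 for let-7d, -0.66 for miR-204, 0.50 for miR-301b, 5.13 for miR-200c and 0.43 for miR-454a on the log2 scale (adjusted p 0.0324 for miR-19c, 0.0466 for miR-216a and 0.0472 at most). miR-30a averaged 3.36 ± 0.492 CPM at 36 months and 3.02 ± 0.725 CPM at 12 months, and miR-730 and miR-301b 257 ± 47.7 and 153 ± 9.85 CPM at 36 months against 263 ± 42.2 and 136 ± 10.5 CPM at 12 months.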

How the results depend on the processing

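No paired analysis was possible because replicates carry no shared number in the labels. Calls at 36 against 12 months numbered 8 (3 higher, 5 lower). The count was 20 (9 and 11) with DESeq2, 0 (0 and 0) with the 10 libraries only and 0 (0 and 0) without the libraries rich in epithelial miRNAs, an alternative chosen after seeing the data. Calls lower numbered 9 with library totals only, and calls higher 5 at a mean of at least 10 CPM. Fewer libraries enter both fits with 0 calls. With the epithelial sums as covariates, on all 25 libraries and also chosen after seeing the data, 7 were called (3 and 4), 5 of them among the 8. Leaving out 1 library gave 5 to 13 calls, 1 to 5 higher and 3 to 8 lower. Differences from 24 against 6 months numbered 18 (12 and 6), and 30 (19 and 11) with DESeq2 size factors, 28 with no filter (10 lower), 20 higher and 1 lower with library totals only, 2 (2 and 0) with limma-voom, and 0 (0 and 0) without the epithelial-rich libraries and with the sums as covariates, both chosen after seeing the data. Leaving out 1 library gave 0 to 37, 0 to 25 higher and 0 to 12 lower. Differences from 42 against 24 months numbered 0, and 0 to 13, 0 to 7 higher and 0 to 6 lower, without 1 library.

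Over the alternatives, 1259 changes of named miRNAs kept their sign and side of the threshold, 30 gained a call, 41 lost one, and 47 turned sign, none of them called. Of the named differences from 24 against 6 months 100 of the values lost the call and 69 kept it. With library totals only the turned changes were -0.027 for miR-9 and -0.0014 for miR-181c, with single hairpins -0.033 for miR-9 and with limma-voom -0.0050 for miR-429b. Without the epithelial-rich libraries they were -0.077 for miR-128, -0.021 for miR-126a, 0.071 for miR-214, -0.59 for miR-429b, 0.18 for miR-205, 0.49 for miR-203b, 0.37 for miR-184, -0.028 for miR-7a, 0.96 for miR-206, 0.16 for miR-27a, -0.0062 for miR-9 and 0.059 for miR-34a. With the sums as covariates they were -0.0012 for miR-181a and -0.041 for miR-128, -0.074 for miR-9, -0.91 for miR-429b, 0.21 for miR-203b, 0.49 for miR-206, 0.051 for miR-34a and 0.022 for miR-216a. Leaving out 1 library, the changes that turned spanned -0.066 to 0.034 for miR-216a, -0.057 to 0.056 for miR-126b, -0.12 to 0.039 for miR-730, -1.11 to 0.023 for miR-199, -2.13 to 0.56 for miR-206, -0.13 to 0.011 for miR-34a, -3.38 to 4.52 for miR-429b, -1.76 to 2.56 for miR-141, -1.64 to 2.40 for miR-200c, -0.13 to 0.42 for miR-451, -0.72 to 0.040 for miR-34c, -0.013 to 0.069 for miR-9 and -0.087 to 0.0086 for miR-125b. The differences in total count spanned -2356510 to 2288260 and those in the share of miR-181a -0.754 to 0.674 percentage points. The cause of these turns was not tested.

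Depth limits miRNAs of a few CPM, such as miR-196b, miR-206 and miR-30a.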

Other observations

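Activity-regulated miRNAs of neurons showed no called change. miR-132 averaged 21243 ± 2795 CPM at 36 months and 21685 ± 2484 CPM at 12 months, and miR-212, its neighbour in the genome, 7826 ± 1242 CPM at 36 months and 7900.5 ± 588 CPM at 12 months, at changes of -0.03 (SE 0.11) and -0.01 (SE 0.12). miR-124, known from all neurons, had a change of 0.03 (SE 0.20), and miR-21, known from glia and immune cells, averaged 40901 ± 13463 CPM at 36 months and 34858 ± 4440.2 CPM at 12 months (0.23, SE 0.15, adjusted p 0.392). miR-31 averaged 18.99 ± 7.80 CPM at 36 months and 11.02 ± 4.96 CPM at 12 months (0.79, SE 0.31, adjusted p 0.146), and was called with the epithelial sums as covariates.

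miR-430b, of the family that clears maternal mRNAs in zebrafish embryos, was under 3 CPM in all 36-month libraries and in 12-month replicates 1, 2 and 5, and at 19.2 and 5.57 CPM in 12-month replicates 3 and 4 (-2.54, SE 1.09, adjusted p 0.181). miR-7146 was under 1 CPM in 36-month replicates 2, 3 and 5 and at 7.79 and 8.76 CPM in replicates 1 and 4, against 12.4, 10.9, 14.9, 11.1 and 4.64 CPM at 12 months (-1.60, adjusted p 0.193). Over the 177 miRNAs that averaged 10 CPM or more, the median SD of log2 CPM was 0.243 at 36 months and 0.228 at 12 months, and the SD was larger at 36 months for 90 and at 12 months for 87. miR-31, miR-430b and miR-7146 were named after their values were seen.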
